A study of Mus musculus with 2 samples.

Results

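The colony-stimulating factors (CSFs) and their receptors were followed across the cell types of the adult mouse lung, as sources and as receivers. The set was a list of 9 genes, of 33696 in the deposited matrices, taken by name and not by a cut on measured values. Earlier results of these data were known when the list was chosen. It held 4 ligands and 5 receptor chains. The ligands were Csf1 (ENSMUSG00000014599, macrophage CSF), Il34 (ENSMUSG00000031750, interleukin-34), Csf2 (ENSMUSG00000018916, granulocyte-macrophage CSF, GM-CSF) and Csf3 (ENSMUSG00000038067, granulocyte CSF, G-CSF). The receptor chains were Csf1r (ENSMUSG00000024621), Csf2ra (ENSMUSG00000059326), Csf2rb (ENSMUSG00000071713), Csf2rb2 (ENSMUSG00000071714) and Csf3r (ENSMUSG00000028859).

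CSF1 and IL-34 are alternative ligands of the receptor tyrosine kinase CSF1R, on which most tissue macrophages and nonclassical monocytes depend. GM-CSF binds a ligand-specific alpha chain, CSF2RA, which signals with the common beta chain CSF2RB, and alveolar macrophages are the lung cells best known to need it. The mouse has another beta chain, encoded by Csf2rb2, that serves interleukin-3. G-CSF acts through CSF3R, the receptor of the neutrophil lineage.

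The study compared live-sorted, enzymatically dissociated lung cells of adult mice with and without GFI1, a transcriptional repressor of blood cell development. Here each genotype label, GFI1 KO or WT, was represented by 1 library of a mouse numbered 1, made with the 10x Genomics 3′ v3 assay. Per the study's methods the KO mice lacked the gene in the germline and the background was C57BL6/J. With 1 library per label, genotype cannot be told apart from animal or preparation, no test was possible, and all intervals (95%) cover counting error only. Levels are given as CPM, the UMIs (unique molecular identifiers) of a gene per 1000000 UMIs of the genes used. Gfi1 itself had 3.60 CPM (3.23 to 4.0) in the library labelled GFI1 KO and 3.47 CPM (3.16 to 3.80) in the one labelled WT. The Gfi1 RNA level therefore did not check the labels, and the libraries are called KO-labelled and WT-labelled.

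The KO-labelled library held 10700 called cells with 116825535 UMIs, and the WT-labelled library 19515 cells with 162599284 UMIs. After the cell filter 10495 and 19342 cells were kept, with medians of 11076 and 6217 UMIs per cell, and 74 cell barcodes occurred in both libraries. Cells were assigned to 25 classes by lists of 5 to 8 marker genes, of which at least 0.5 had to be detected. No class was given to 747 KO-labelled (7.12%) and 1755 WT-labelled cells (9.07%).

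The cell mix differed widely between the libraries. Classical monocytes were 42% of the KO-labelled and 1.77% of the WT-labelled cells (4409 and 343). Alveolar macrophages were 23.9% and 21.9% (2511 and 4234). The mature neutrophil gate took 1556 WT-labelled and 45 KO-labelled cells, and the latter went in part against the name of the gate. Their leading 10 genes held 3 granule markers (Ngp, Camp and Ltf) beside 2 of their own list. Their median Ly-6G antibody tag was 3 UMIs against 241. Retnlg was seen in 24.4% of them against 82% and Mmp9 in 44.4% against 87.9%. Cxcr2, however, was seen in 82.2% against 88.2% and Il1r2 in 97.8% against 99.0%. S100a8 and S100a9 were seen in 100% and 97.8% against 98.3% and 98.8%. Median depths were 14169 and 3047 UMIs. The neutrophil gate was therefore described within the WT-labelled library and not compared. General capillary endothelium held 88 and 1954 cells, fibroblasts 15 and 308, and mural cells 0 and 43. The 0 mural cells allow a share of up to 0.0286% of the KO-labelled cells.

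**Figure D1:**
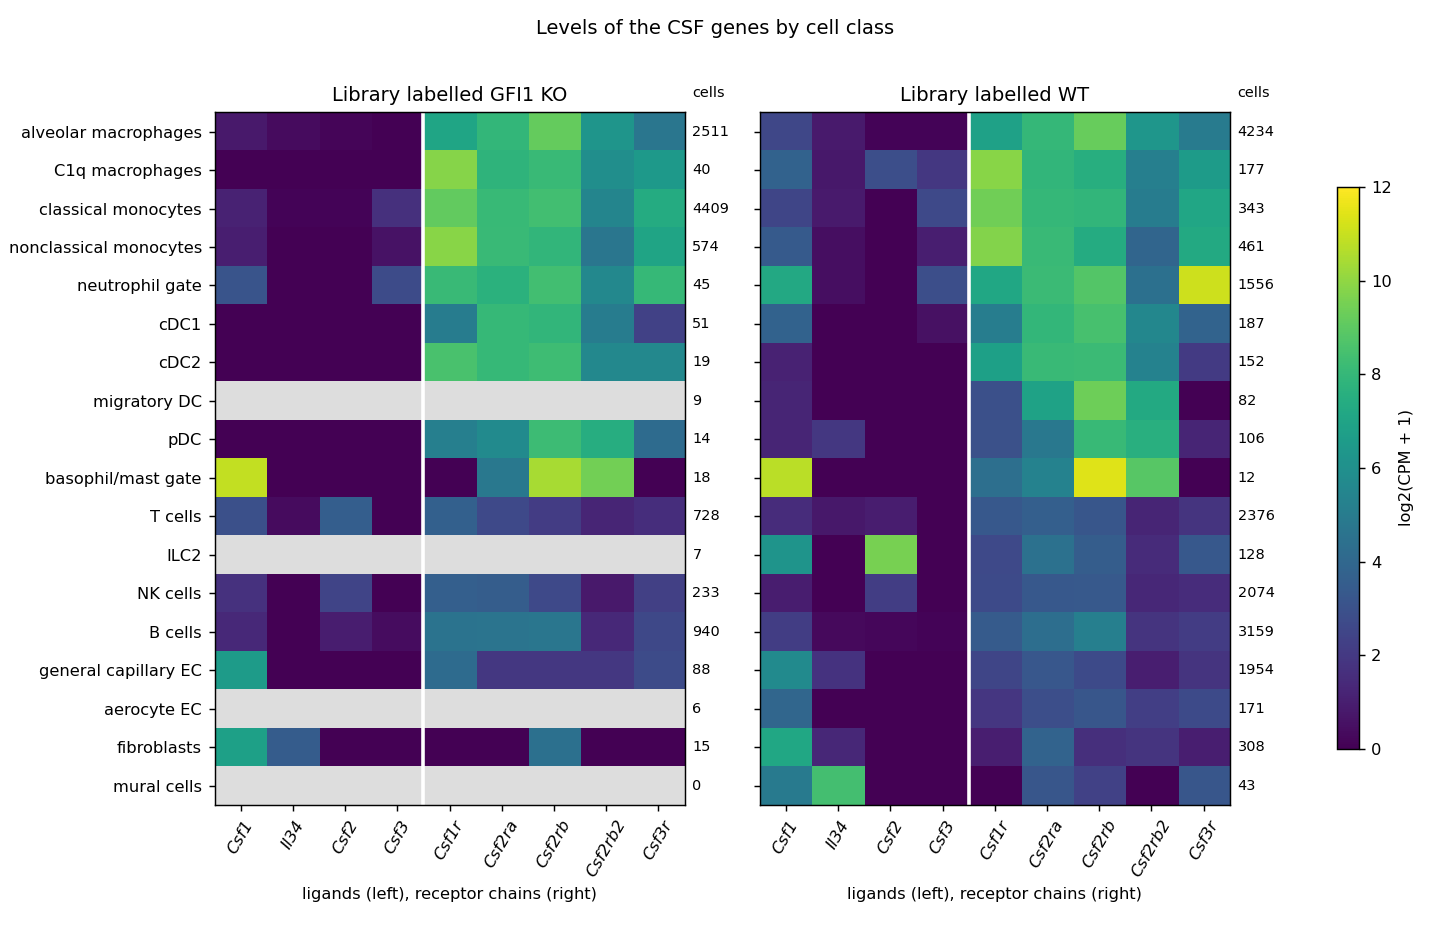
Levels of the 9 CSF genes, as log2(CPM + 1) by colour, in 18 cell classes (rows) of each library (panels); numbers at the right are cells, and grey rows are gates with fewer than 10 cells. Ligands are bright in few classes (Csf1 in the basophil/mast gate, Csf2 in ILC2, Il34 in mural cells), while receptor chains are spread over the myeloid rows.

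Over all kept cells 5 of the 9 genes differed by over 2-fold between the libraries, 2 of them higher and 3 lower in the KO-labelled one, where 28.4% of the 16306 genes with at least 30 UMIs did so. The median log2 ratio (KO-labelled over WT-labelled) was 0.23 for the members and -0.37 for all genes. The CSF1 receptor gene Csf1r stood at 377 against 111 CPM, a ratio of 3.39 (3.32 to 3.45), and Csf3 at 1.19 against 0.480 CPM, a ratio of 2.47 (1.81 to 3.41). Csf1 was 5.50-fold lower (4.91 to 6.18) in the KO-labelled library, at 3.52 against 19.3 CPM. Il34 was 6.73-fold lower (4.58 to 10.2), at 0.307 against 2.07 CPM, and Csf2 was 3.05-fold lower (2.49 to 3.77), at 1.24 against 3.78 CPM. The other receptor chains lay within 2-fold, with Csf2ra at 233 against 156 CPM, Csf2rb at 370.0 against 314 CPM, Csf2rb2 at 48.9 against 40.4 CPM and Csf3r at 101 against 124 CPM. Averaged over cells, which weights each cell equally, Csf3r was past 2-fold, at 94.9 against 225 CPM, and Csf2 and Csf3 were within it, at 2.77 against 4.66 CPM and 1.04 against 0.657 CPM.

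The levels were also compared at an equal class mix. In 8 classes with at least 50 cells in each library, the KO-labelled levels were weighted by the share each class had of the WT-labelled UMIs, a step added after seeing the data. Restriction to those classes alone already moved some ratios, Csf2 from 0.327 to 1.41 and Csf3r from 0.810 to 3.97. With the weighting the Csf1r ratio over those classes went from 3.60 to 1.11. The same weighting took Csf3r from 3.97 to 0.892, Csf2ra from 1.49 to 0.951, Csf2rb from 1.15 to 0.973 and Csf2rb2 from 1.15 to 0.995. Among ligands it took Csf1 from 0.193 to 1.20, Csf3 from 5.43 to 0.503, Csf2 from 1.41 to 3.90 and Il34 from 0.181 to 0.224. The ratios of all 5 receptor chains and of Csf1 and Csf3 came to lie closer to 1 under the weighting, that of Il34 stayed low, and that of Csf2 moved further from 1. For Csf1 the single classes went opposite ways, among them 0.156 in alveolar macrophages, 1.83 in general capillary endothelium and 3.50 in T cells. The endothelium, the highest of these classes in Csf1, had 33 KO-labelled UMIs in 88 cells. Neutrophils, group 2 innate lymphoid cells, basophils or mast cells, fibroblasts and mural cells were among the classes with too few KO-labelled cells to enter. Cells without a class did not enter either. Much of the ligand RNA was thus left out. The basophil or mast cell gate held 142 of the 332 KO-labelled Csf1 UMIs, and unclassed cells 442 of the 2621 WT-labelled ones. Group 2 innate lymphoid cells held 409 of the 513 WT-labelled Csf2 UMIs.

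**Figure D2:**
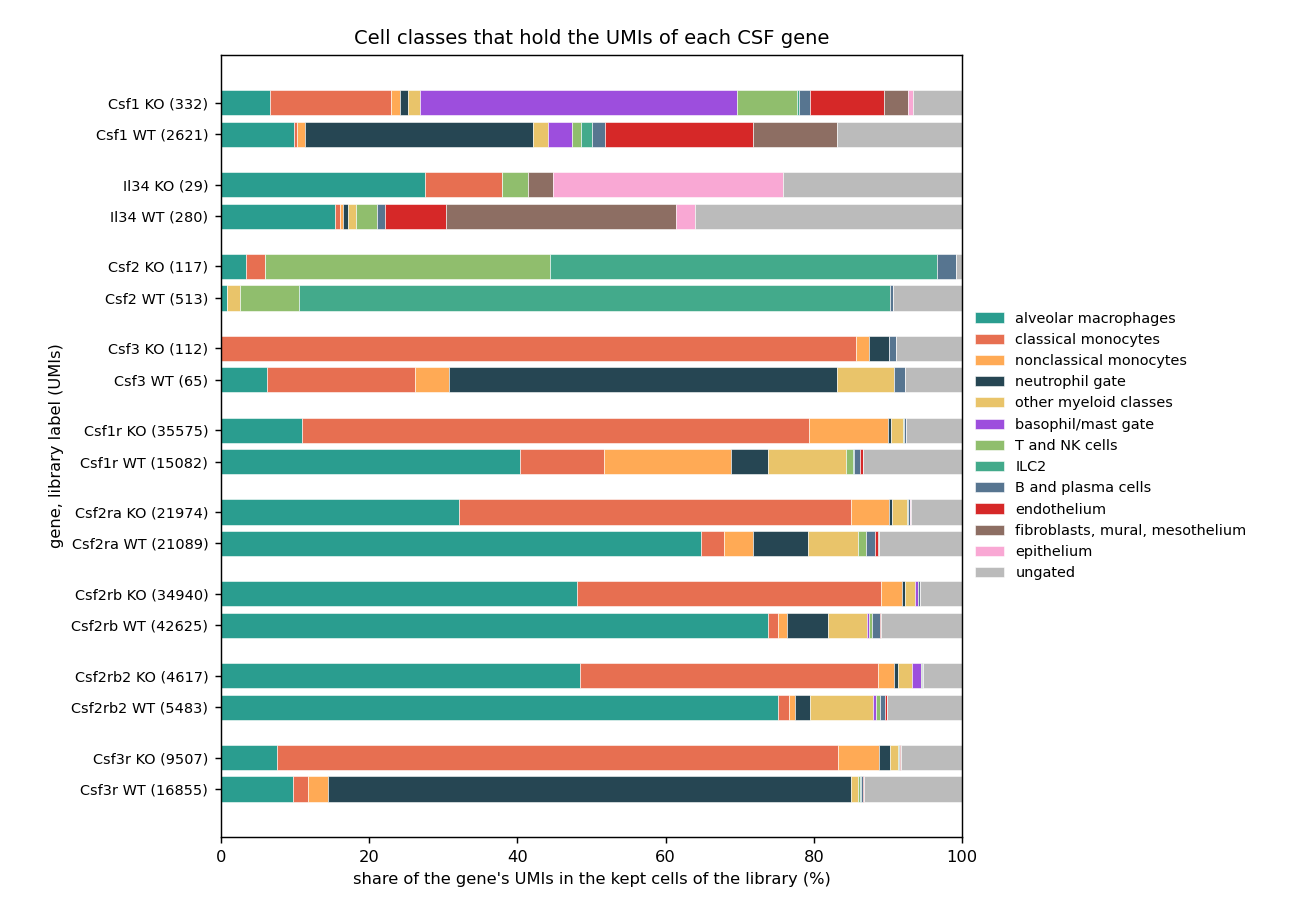
Share of each gene's UMIs (%, x axis) held by each group of cell classes (colours), a bar per gene and library label, with the gene's UMIs in parentheses. In the WT-labelled library the neutrophil gate holds 30.8% of Csf1 and 70.6% of Csf3r UMIs, and in the KO-labelled library classical monocytes hold 75.7% of Csf3r and 68.4% of Csf1r UMIs.

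Csf1 RNA was highest per UMI in a few basophils or mast cells. The gate for them, with Mcpt8, Fcer1a and Il4 among the leading genes in each library, held 18 KO-labelled cells with 142 Csf1 UMIs, a level of 1889.6 CPM (1592 to 2227). In the WT-labelled library it held 12 cells with 88 UMIs, 1738 CPM (1394 to 2142), and the intervals overlapped. The gate's 6 markers were all higher in the KO-labelled cells, from Cd200r3 at 1198 against 1067 CPM to Mcpt8 at 3447 against 751 CPM. Their median CD11b antibody tag was 244.5 UMIs against 33.5, and their FceRIa tag 47.5 against 51.5. The gate may therefore not hold the same mix of cells in each library. The Csf1 UMIs lay in 14 of the 18 and in 10 of the 12 cells, and 1 KO-labelled cell held 56 of them. These 18 cells made up 42.8% (37.4 to 48.3) of all Csf1 UMIs of the KO-labelled library.

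In the WT-labelled library most Csf1 came from larger populations. The neutrophil gate had 149 CPM (139 to 159.6), with Csf1 in 413 of 1556 cells, and held 30.8% of the Csf1 UMIs. General capillary endothelium held 19.2% and fibroblasts 10.5%. Fibroblasts had overlapping levels in the libraries, 114 (56.7 to 203) CPM on 11 KO-labelled UMIs and 139.7 (124 to 157) CPM in the WT-labelled cells. General capillary endothelium had 95.3 (65.6 to 134) CPM on 33 KO-labelled UMIs and 52.1 (47.7 to 56.9) CPM on 504 WT-labelled UMIs, a ratio of 1.83 (1.25 to 2.60). In each library 1 of these cells held at least 5 UMIs (7 and 5), and without it the levels were 76.5 and 51.6 CPM. The share of these endothelial cells with a Csf1 UMI was 22.7% and 20.4%, at medians of 4020.5 and 4908 UMIs. Group 2 innate lymphoid cells (ILC2) of the WT-labelled library had 73.3 (52.6 to 99.5) CPM and its 10 mesothelial cells 125 (71.6 to 203) CPM.

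In leukocytes that held little Csf1 the libraries went different ways. Alveolar macrophages had 0.755 CPM (22 UMIs in 21 cells) in the KO-labelled library and 4.84 CPM (257 UMIs in 110 cells) in the WT-labelled one. The KO-labelled level was 6.41-fold lower (4.14 to 10.4). Of the 257 UMIs, 121 lay in 12 cells with at least 5 each, and the other cells had 2.57 CPM. Nonclassical monocytes had 0.986 against 9.60 CPM (4 and 28 UMIs), and classical monocytes 1.24 against 4.78 CPM (54 and 12 UMIs). B cells, which should lack Csf1, had 1.59 against 3.52 CPM, with a UMI in 0.532% and 1.20% of cells at median depths of 4011 and 4340.0 UMIs. The alveolar macrophage share was 0.836% and 2.60% at the greater median depths of 13344 and 13989.5 UMIs. The KO-labelled levels of macrophages and both monocyte classes lay below that of KO-labelled B cells, which rested on 5 UMIs. With so few UMIs and unequal depths, these levels were not told apart from background. The WT-labelled side was also near background in 2 of these classes. Without the 12 cells, the macrophage level of 2.57 CPM lay below the 3.52 CPM of B cells. The classical monocyte level of 4.78 CPM rested on 12 UMIs.

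Some, but not all, genes of other lung cells were lower along with Csf1 in KO-labelled alveolar macrophages. In alveolar macrophages Kit and Kitl, which capillary cells of the lung express, stood at 0.0343 against 2.73 CPM and 0.412 against 3.93 CPM. The 5 fibroblast markers together had 0.274 against 4.25 CPM there, all 5 of them above 0 in each library. The 6 basophil or mast cell markers had 0.515 against 2.32 CPM, with 3 and 6 of them above 0, and the 6 neutrophil markers 107 against 120.3 CPM. Their part in the Csf1 difference was not tested. In T cells Csf1 went the other way, with 6.72 CPM (24 UMIs in 12 cells) and 1.92 CPM (22 UMIs in 18 cells), a ratio of 3.50 (1.88 to 6.54). Here 1 KO-labelled cell held 9 UMIs, and without it the level was 4.20 CPM. The WT-labelled T cell level lay below that of WT-labelled B cells, so the denominator of this ratio was not told apart from background. The fibroblast markers had 0.280 against 18.4 CPM in T cells, opposite to Csf1, and the 6 classical monocyte markers 907 against 385 CPM. The highest single monocyte marker had 580 and 249 CPM of these sums. In natural killer cells the 6 monocyte markers went the other way, at 610 against 867 CPM. The part of either list in the T cell Csf1 values was not tested. Type 1 conventional dendritic cells (cDC1) of the WT-labelled library had 28 Csf1 UMIs, of which 26 lay in 1 cell, and the 51 KO-labelled ones had 0.

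Il34 RNA was highest in mural cells, the pericytes and smooth muscle cells of vessels. The 43 mural cells of the WT-labelled library held 83 of its 280 Il34 UMIs (29.6%, 24.4 to 35.4), a level of 337 (269 to 418) CPM with a UMI in 32 of 43 cells. The KO-labelled library held no cell in this gate, so its level there could not be measured. A further 101 WT-labelled Il34 UMIs (36.1%) lay in cells without a class. Alveolar type 2 epithelium, few in number, had 96.4 (44.1 to 183) CPM on 9 UMIs in 3 of 7 KO-labelled cells and 23.6 (9.48 to 48.6) CPM on 7 UMIs in 5 of 15 WT-labelled cells. Alveolar macrophages had 0.274 against 0.809 CPM (8 and 43 UMIs), a ratio of 0.339 (0.138 to 0.730). T cells had similar levels, 0.280 and 0.698 CPM on 1 and 8 UMIs. B cells, which should lack Il34, had 0 and 3 UMIs, the latter 0.235 CPM. The macrophage levels thus lay near background. General capillary endothelium had 0 UMIs in 88 KO-labelled cells, which allows up to 8.67 CPM, and 23 UMIs or 2.38 CPM in the WT-labelled ones. That difference was not detectable at this depth.

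Csf2 RNA lay mostly in lymphoid cells. ILC2, innate producers of type 2 cytokines, had 732 (662 to 806) CPM in the WT-labelled library, with 409 UMIs in 42 of 128 cells and up to 71 in 1 cell. They held 79.7% of the Csf2 UMIs of that library and 0.412% of all UMIs used. In the KO-labelled library 7 cells passed the ILC2 gate, and 3 of them held 61 Csf2 UMIs (2521 CPM, 1928 to 3238), with 32 in 1 cell. These 7 cells held 52.1% (42.7 to 61.5) of the Csf2 UMIs of that library. Their leading genes were Ccl1, Csf2 and Il5, and Ccl1 and Csf2 were also among the first 10 of the WT-labelled ILC2. Markers of the gate among the first 10 numbered 0 and 1. Gata3, Il1rl1 and Rora were seen in 100% of the 7 cells, Arg1 in 71.4%, and Hs3st1 and Ltb4r1 in 42.9% each. The levels were not compared, since the KO-labelled gate held only 7 cells.

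T cells held 33.3% (24.9 to 42.6) of the KO-labelled Csf2 UMIs. Their level was 10.9 CPM (39 UMIs in 17 of 728 cells) in the KO-labelled and 0.960 CPM (11 UMIs in 10 of 2376 cells) in the WT-labelled library, a ratio of 11.4 (5.71 to 24.6). The share of T cells with a Csf2 UMI was 2.34% against 0.421%, at medians of 6458.5 and 6123 UMIs. In B cells, which should lack the cytokine, it was 0.106% and 0.0633%. Leaving out the 2 KO-labelled T cells with at least 5 UMIs lowered the level to 7.01 CPM. Natural killer cells had 4.55 and 3.55 CPM (6 and 30 UMIs), a ratio of 1.28 (0.436 to 3.13) whose interval included 1.

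The T cell gate was divided by lineage RNA, a division chosen after the values were seen. Cells with a UMI of Trdc, the delta chain constant region of γδ T cells, and none of Cd4, Cd8a or Cd8b1 had Csf2 at 38.7 CPM (21.7 to 63.9) in the KO-labelled library, with 15 UMIs in 5 of 70 cells. WT-labelled cells of this kind had 5.40 CPM (0.654 to 19.5), with 2 UMIs in 1 of 73 cells. As shares of cells with a Csf2 UMI these were 7.14% (2.36 to 15.9) and 1.37% (0.0347 to 7.40), and the share intervals overlapped. The CPM intervals do not allow for several UMIs in 1 cell. Cells with Cd4 alone had 4.19 and 0.714 CPM on 2 and 2 UMIs, and cells with Cd8a or Cd8b1 alone 1.03 and 0.356 CPM on 2 and 2 UMIs. The remaining T cells, in which these transcripts were absent or mixed, had 26.1 CPM (20 UMIs in 9 of 181 cells) and 1.88 CPM (5 UMIs in 5 of 604 cells). Of the Csf1 UMIs of KO-labelled T cells, 12 lay in 3 of the Cd4 cells and 0 in the Trdc cells.

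Csf3 RNA was rare, and its UMIs lay mainly in myeloid gates. Classical monocytes held 96 of the 112 KO-labelled UMIs (85.7%, 77.8 to 91.6), in 57 of 4409 cells. As a level, however, they had 2.21 (1.79 to 2.70) CPM in the KO-labelled library and 5.17 (2.75 to 8.85) CPM in the WT-labelled one (13 UMIs in 7 of 343 cells). The KO-labelled level was 2.34-fold lower (1.20 to 4.19). Of these UMIs, 19 lay in 3 KO-labelled cells and 5 in 1 WT-labelled cell with at least 5 each. Without those cells the levels were 1.77 and 3.19 CPM, within 2-fold. In the WT-labelled library the neutrophil gate held 34 of 65 UMIs (52.3%) at 6.27 CPM, in 15 of 1556 cells. Alveolar macrophages had 0 and 4 UMIs, B cells 1 and 1, and T cells 0 in each library. No epithelial, fibroblast or endothelial gate held a Csf3 UMI in either library. Epithelial gates were small in each library (alveolar type 2, 7 and 15 cells). KO-labelled fibroblasts (15 cells) and general capillary endothelium (88 cells) were also few. Absence of Csf3 from these gates cannot be read from the 0 counts.

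Csf1r was graded over mononuclear phagocytes. C1q interstitial macrophages had 916 and 929.6 CPM, nonclassical monocytes 941 (911 to 971) and 888 (854 to 923) CPM, classical monocytes 560.4 (553 to 567) and 677 (645 to 709.9) CPM and alveolar macrophages 133 (129 to 137) and 115 (112 to 118) CPM, the KO-labelled library first. The intervals of C1q macrophages and nonclassical monocytes overlapped, while both lay above classical monocytes and these above alveolar macrophages in each library. The WT-labelled neutrophil gate had 139 CPM, and cDC1 had 31.7 and 33.2 CPM. T cells, which should lack the receptor, had 11.8 and 8.73 CPM. Between the libraries the ratio was 1.06 (1.01 to 1.11) in nonclassical monocytes, 0.828 (0.788 to 0.870) in classical monocytes and 1.16 (1.11 to 1.21) in alveolar macrophages. Of the 8 classes with at least 50 cells in each library, ratios above 2 were found only in B cells, natural killer cells and general capillary endothelium, with 72, 15 and 6 KO-labelled UMIs. In the endothelial gate Tyrobp, a myeloid adaptor gene, stood at 121 against 35.9 CPM and the 6 classical monocyte markers together at 89.6 against 28.1 CPM. Their part in the Csf1r values was not tested.

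Csf2ra was similar across most, but not all, myeloid classes. Its level lay between 200 and 300 CPM in alveolar macrophages, C1q macrophages, both monocyte classes and both conventional dendritic cell classes of each library. Alveolar macrophages had 242 (237 to 248) and 257 (253 to 262) CPM, classical monocytes 267 and 257 CPM, nonclassical monocytes 280.0 and 277 CPM and WT-labelled neutrophils 291 CPM. It was lower in migratory dendritic cells, at 192 and 119.8 CPM, in plasmacytoid dendritic cells, at 52.6 and 26.5 CPM, in the basophil or mast cell gate, at 26.6 and 39.5 CPM, and in T cells, at 5.32 and 11.5 CPM. No myeloid class with 50 cells in each library differed by over 1.5-fold in Csf2ra between the libraries.

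Csf2rb was ordered differently. The basophil or mast cell gate, low in Csf2ra, led with 1397 (1143 to 1691) and 2686 (2254 to 3178) CPM, followed by migratory dendritic cells at 576 and 652 CPM and alveolar macrophages at 576 (567 to 585) and 592 (586 to 599) CPM. WT-labelled neutrophils had 439 CPM, and plasmacytoid dendritic cells 298 and 275 CPM. Classical monocytes had 330.0 (325 to 335) CPM in the KO-labelled and 241 (222 to 261) CPM in the WT-labelled library, with a ratio of 1.37 (1.26 to 1.49). Nonclassical monocytes had 241 (226 to 257) CPM and 164 (149 to 179) CPM, with a ratio of 1.47 (1.32 to 1.65). In cDC1 the direction was the opposite, with 241 (201 to 288) against 366 (341 to 392) CPM. In alveolar macrophages the ratio was 0.972 (0.954 to 0.991). General capillary endothelium, which should lack the chain, had 2.89 and 5.38 CPM.

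Csf2rb2 lay below Csf2rb but not in a fixed proportion. The basophil or mast cell gate had 692 (517 to 907) and 474 (304 to 705) CPM, plasmacytoid dendritic cells 175 and 191 CPM, migratory dendritic cells 118 and 154 CPM and alveolar macrophages 76.7 and 77.6 CPM. Between the libraries its ratio was 0.988 (0.938 to 1.04) in alveolar macrophages, 1.34 (1.07 to 1.70) in classical monocytes and 1.81 (1.25 to 2.66) in nonclassical monocytes. Its share of the UMIs of both beta chains was 11.8% (11.3 to 12.2) and 11.6% (11.3 to 11.9) in alveolar macrophages, and 11.5% and 11.7% in classical monocytes. It was 37% (24.3 to 51.3) and 41% (35.7 to 46.5) in plasmacytoid dendritic cells and 4.46% (3.68 to 5.34) in WT-labelled neutrophils. In the basophil or mast cell gate it was 33.1% (25.8 to 41.1) in the KO-labelled and 15% (9.85 to 21.5) in the WT-labelled library. These shares came from 18 and 12 cells, whose gate markers also differed in level. The chains are close paralogs, so shared sequence was counted. Of the 91-base windows of their longest GENCODE M21 transcripts, 387 were identical between them (8.05% of Csf2rb and 8.32% of Csf2rb2), and 0 of 410 windows in the last 500 bases, where a 3′ assay mostly reads, was shared.

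Csf3r was highest in the neutrophil gate of the WT-labelled library, at 2193 (2154 to 2233) CPM with a UMI in 98.3% of cells. Classical monocytes had 166 (162 to 169.6) CPM in the KO-labelled and 138 (124 to 154) CPM in the WT-labelled library, nonclassical monocytes 129.7 and 156 CPM, C1q macrophages 84.8 and 94.2 CPM and alveolar macrophages 24.8 and 30.7 CPM. T cells had 1.96 and 2.53 CPM. The ratio was 1.20 (1.07 to 1.34) in classical monocytes, 0.831 (0.731 to 0.944) in nonclassical monocytes and 0.809 (0.741 to 0.884) in alveolar macrophages. Neutrophils held 70.6% of the WT-labelled Csf3r UMIs, and classical monocytes 75.7% of the KO-labelled ones. The 45 KO-labelled cells of the neutrophil gate had 263 (221 to 310.3) CPM.

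**Figure D3:**
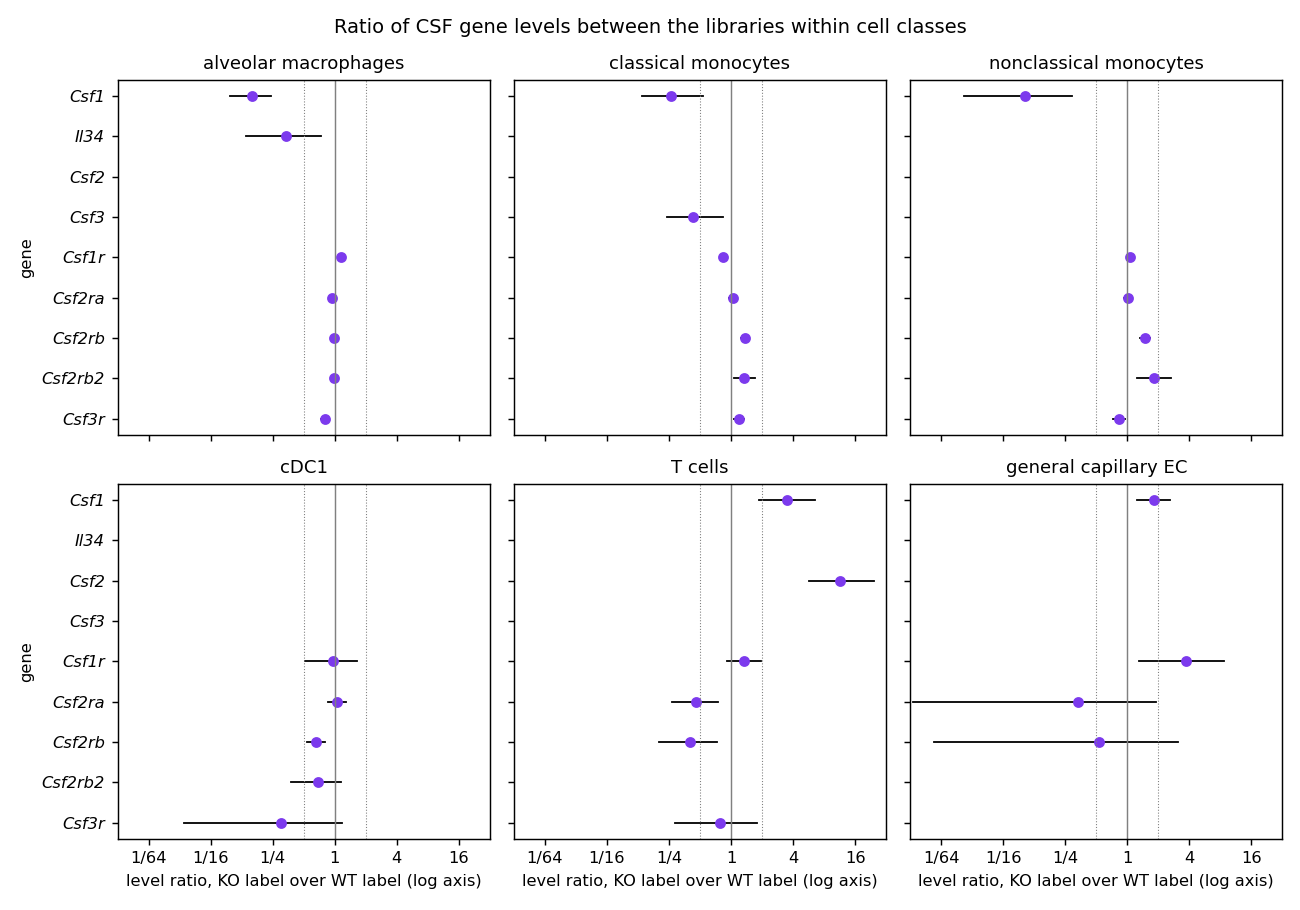
Ratio of each gene's level, KO-labelled over WT-labelled library (log axis), in 6 cell classes (panels), for genes with at least 30 UMIs over both libraries. Points are ratios, bars 95% intervals for counting error, and dotted lines mark 2-fold. Receptor chains lie within 2-fold in alveolar macrophages and monocytes, the farthest being Csf2rb2 at 1.81 in nonclassical monocytes, while Csf1 lies to the left of 1 there and to the right in T cells.

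In each class the members past 2-fold were counted beside all genes measured there. In alveolar macrophages 2 of 7 members, Csf1 and Il34, were lower in the KO-labelled library and 0 higher, where 6.75% of all genes were past 2-fold either way, and all 5 receptor chains lay within it. The Il34 levels there lay near background. The KO-labelled Csf1 levels there and in both monocyte classes were not told apart from it. The median log2 ratio in alveolar macrophages was -0.088 for the members and -0.011 for all genes. In classical monocytes 2 of 7 were lower, Csf1 and Csf3, beside 14.7% of all genes, with medians of 0.054 for the members and 0.026 for all genes. Csf3 lay within 2-fold there when cells with at least 5 of its UMIs were left out. In nonclassical monocytes 1 of 6 was lower, Csf1, beside 6.15%, with medians of 0.048 for the members and -0.034 for all genes. In cDC1 1 of 5 was lower, Csf3r at 3.96 against 13.2 CPM, beside 8.26%. In T cells 2 of 6 were higher, Csf1 and Csf2, and 2 lower, Csf2ra and Csf2rb at levels near background, beside 9.89%. In natural killer cells 1 of 4 was higher, Csf1r, beside 14.7%. In B cells 1 of 6 was higher, Csf1r, and 1 lower, Csf1, beside 7.66%, and in general capillary endothelium 1 of 4 was higher, Csf1r, and 1 lower, Csf2ra, beside 16%. The intervals of 3 of these ratios included 1, at 0.30 (0.0347 to 1.19) for Csf3r in cDC1 (2 and 29 UMIs), 0.453 (0.14 to 1.14) for Csf1 in B cells and 0.333 (0.00832 to 1.90) for Csf2ra in general capillary endothelium (1 KO-labelled UMI).

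The GM-CSF receptor needs both of its chains, and their co-detection was counted after each cell was thinned to 1500 UMIs. In alveolar macrophages 16.5% (15.1 to 18) of KO-labelled and 17.8% (16.7 to 19) of WT-labelled cells then had UMIs of both Csf2ra and Csf2rb. Without thinning the shares were 88% and 89.8%, at medians of 13344 and 13989.5 UMIs. Classical monocytes had 12.3% (11.3 to 13.3) and 7.60% (5.03 to 10.9), and 80% and 58.3% without thinning at medians of 11882 and 8765 UMIs. WT-labelled neutrophils had 14% (12.2 to 15.8), and 37.1% without thinning at their median of 3047 UMIs. Thinning left out 101 of the 1556 neutrophils, 13 and 1 classical monocytes and 3 and 6 alveolar macrophages. In T cells, which should lack the alpha chain, 0 of 720 and 0 of 2367 cells had both chains, which allows up to 0.417% and 0.127% of cells with UMIs of both at this depth and sets no limit on cells that express them.

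Csf1r and Csf3r, receptors of the macrophage and the granulocyte branch, were also found together. After thinning, 11.8% (10.9 to 12.8) and 10.2% (7.23 to 13.9) of classical monocytes had UMIs of both, as did 11.9% and 12.7% of nonclassical monocytes. WT-labelled neutrophils had 14.9% (13.1 to 16.8), with Csf1r in 16.3% and Csf3r in 93.7% of cells. In alveolar macrophages the share was 0.758% and 0.497%, and in T cells 0 of 720 and 0 of 2367 cells had both.

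**Figure D4:**
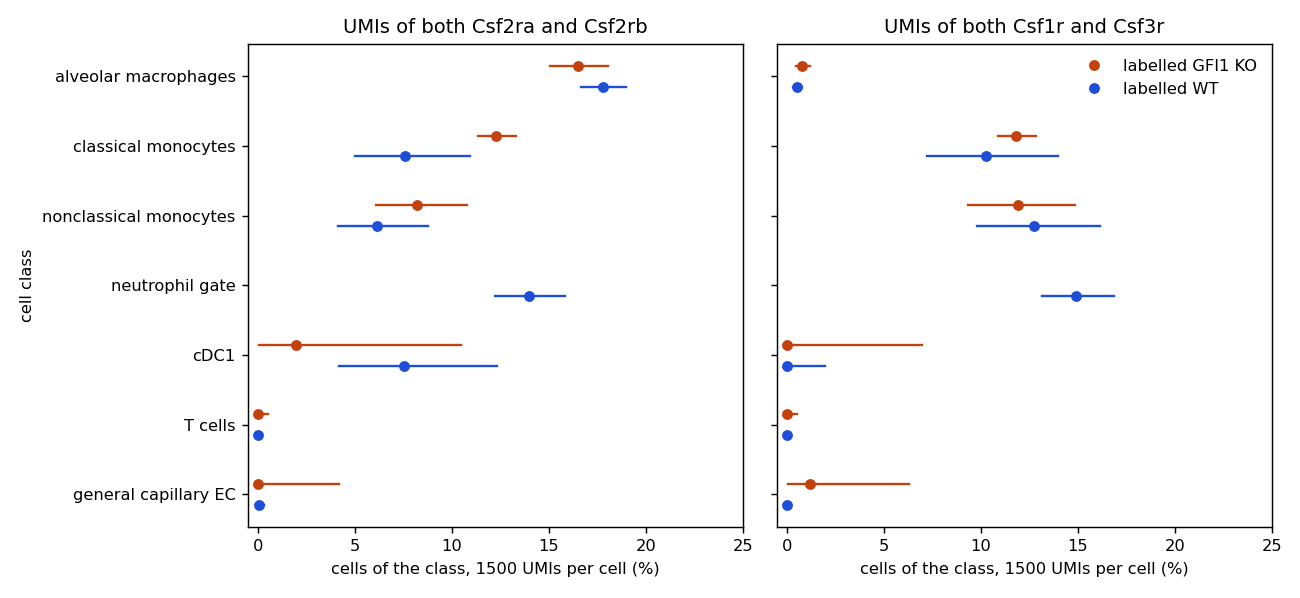
Share of cells (%, x axis) with UMIs of both GM-CSF receptor chains (left) and of both Csf1r and Csf3r (right) at 1500 UMIs per cell, by cell class (rows) and library label (colours), with exact 95% intervals. Alveolar macrophages lead on the left at 16.5% and 17.8%, and monocytes and neutrophils lead on the right. The KO-labelled neutrophil gate is left out.

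The classical monocyte gate spanned cells with and without granule genes, which neutrophil precursors normally transcribe, and Csf1r fell with the number of granule markers detected. It was 707 CPM (683 to 732) in the 602 KO-labelled cells with 0 of the 8 markers, 619 CPM with 1, 530.4 CPM with 2, and 411 CPM (393 to 429.7) in the 382 cells with 3. The 30 cells of the granule gate, with 4 or more, had 325 CPM (274 to 382). Not all 8 markers took part in that gate, where Ngp and Camp had 0 UMIs and Ltf had 1. Of its 30 cells, 18 had only the lowest share of markers that the gate allows. Its median cell had 100% of the classical monocyte markers. Median depth rose along the same bins, from 10014 to 17268.5 UMIs, and its part was not tested. In the WT-labelled library Csf1r was 704 CPM (663 to 748) in 216 cells with 0 markers, 650.1 CPM in 109 cells with 1 and 507 CPM (393 to 644) in 17 cells with 2. At each of these marker numbers the Csf1r intervals of the libraries overlapped. Csf3r did not fall in this way, with 145, 161, 175, 154 and 138 CPM in the same KO-labelled order, nor did Csf2ra, with 259, 273, 269, 254 and 299.8 CPM. Csf2rb was 335 CPM (319 to 353) in KO-labelled and 220.5 CPM (197 to 245) in WT-labelled cells with 0 granule markers detected. With 1 marker it was 325 CPM (315 to 335) and 272 CPM (238 to 310). With 2 it was 332 CPM (325 to 340) and 250 CPM (172 to 351), where the intervals overlapped. Csf3 had 1.51 CPM (0.606 to 3.10) and 5.92 CPM (2.71 to 11.2) in the cells with 0 markers, on 7 and 9 UMIs. With 1 marker it had 2.11 CPM (1.37 to 3.11) and 3.52 CPM (0.726 to 10.3), and in both bins the intervals overlapped. Ratio intervals were not computed for the marker bins, and for no gene does overlap of separate intervals show equal levels.

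**Figure D5:**
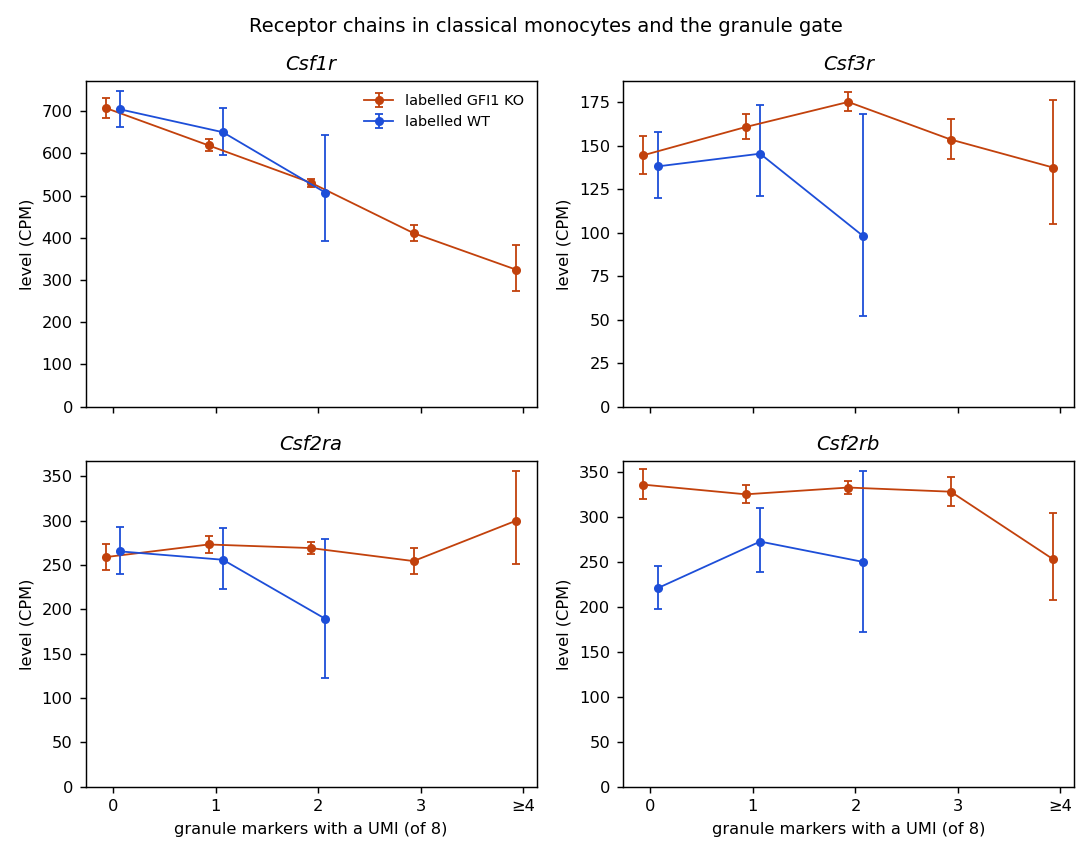
Level of 4 receptor chains (CPM, y axis) in classical monocytes by the number of granule markers with a UMI, of 8, with the granule gate as the last bin; points are sums over cells with 95% counting intervals, and bins under 10 cells are left out. Csf1r falls from 707 to 325 CPM in the KO-labelled library. Csf2rb is 335 against 220.5 CPM at 0 markers, 325 against 272 CPM at 1 and 332 against 250 CPM at 2.

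Upstream sequence is shown for the receptor chains that the RefSeq promoter table (GRCm38.p6) held, because these chains were read in the same myeloid classes. The deposited counts were made on GRCm39, so the coordinates serve the sequences only. The table matched 5 of the 9 members, Csf1, Csf2, Csf2ra, Csf2rb2 and Csf3r. Each line gives the 250 bases before the annotated start, 5′ to 3′ on the gene's strand. Capitals mark GAGGAA or its reverse complement, core letters that PU.1, the myeloid regulator encoded by Spi1, is known to bind.
Csf2ra, chr19:61228419-61228668, minus strand: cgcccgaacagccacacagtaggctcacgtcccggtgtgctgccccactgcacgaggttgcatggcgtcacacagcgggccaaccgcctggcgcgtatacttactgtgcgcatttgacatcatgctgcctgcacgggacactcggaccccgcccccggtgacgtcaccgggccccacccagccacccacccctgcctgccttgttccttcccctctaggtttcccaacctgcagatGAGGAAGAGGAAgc
Csf2rb2, chr15:78305722-78305971, minus strand: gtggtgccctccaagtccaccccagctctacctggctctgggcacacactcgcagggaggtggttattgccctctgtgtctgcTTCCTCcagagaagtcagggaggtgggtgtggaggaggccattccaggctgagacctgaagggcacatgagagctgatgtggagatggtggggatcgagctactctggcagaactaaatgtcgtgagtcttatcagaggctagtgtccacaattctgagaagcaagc
Csf3r, chr4:126024409-126024658, plus strand: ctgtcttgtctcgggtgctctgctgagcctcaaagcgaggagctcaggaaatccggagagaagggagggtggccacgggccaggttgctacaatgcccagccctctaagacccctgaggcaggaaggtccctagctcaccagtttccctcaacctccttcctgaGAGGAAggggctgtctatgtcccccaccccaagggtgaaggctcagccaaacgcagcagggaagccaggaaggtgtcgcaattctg

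Csf2ra held 2 adjoining matches, beginning 14 and 8 bases before the start, Csf2rb2 held 1 at 167 bases and Csf3r 1 at 86 bases. The windows of Csf1 and Csf2 held 0. The motif occurs on either strand in 23.3% of the 32851 promoter windows of this length, and a match is a description of letters, not of binding.

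Among 12773 genes, those whose log2(CPM + 1) was most like each member over 24 class-by-library sums were listed by Pearson's r, as a description, since the sums share libraries. Only sums of at least 50 cells entered. The basophil or mast cell gate, highest in Csf1, and mural cells, highest in Il34, were therefore not among them. ILC2, highest in Csf2, entered from the WT-labelled library alone. Csf2rb was most like Mpeg1 (0.933), a pore-forming gene of macrophages, Mcmdc2 (0.925) and Spi1 (0.924). Csf2rb2 was also most like Mpeg1 (0.921), then Aph1c (0.881) and Sowahc (0.867). Csf1r was most like Clec4a3 (0.955), Igsf6 (0.942) and Clec4a1 (0.941), and Csf3r most like Clec4d (0.957), Trem3 (0.951) and Clec4e (0.936), of which the Clec4 genes encode myeloid C-type lectins. Csf2ra was most like Nlrp3 (0.948), an inflammasome sensor, Amz1 (0.945) and E230029C05Rik (0.939). Among ligands, Csf1 was most like Pknox2 (0.871), Cxcl12 (0.845) and Nbea (0.839), Csf2 most like Stab2 (0.914), Ccl1 (0.881) and Calca (0.878), and Il34 most like Lefty1 (0.709), Efna5 (0.701) and Fads3 (0.700). Csf3 had too few UMIs for this listing.

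The other genes of the pathway, a list of 46 related ligands and receptors, kinases, STATs, feedback inhibitors and transcription factors, were counted in the same way. Over all kept cells 5 of 44 measured were higher and 8 lower in the KO-labelled library by over 2-fold, near the 28.4% of all genes. In alveolar macrophages 0 of 37 were higher and 4 lower, beside 6.75% of all genes, which were Kit and Kitl with the values above, Flt3 at 0.206 against 0.922 CPM and the feedback inhibitor Socs1 at 0.789 against 3.61 CPM. The list's median log2 ratio there was -0.048, beside -0.011 for all genes. In cDC1 1 of 32 was lower, beside 8.26% of all genes, Pparg at 7.92 against 38.7 CPM.

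In classical monocytes 2 of 40 were higher and 9 lower, beside 14.7% of all genes, with a median log2 ratio of -0.14 beside 0.026 for all genes. The higher genes were Cebpe, a factor of granulocyte maturation, at 17.5 against 4.78 CPM and Sdc1, a binding partner of IL-34, at 4.77 against 1.19 CPM. Among the lower ones, the monocyte factor Klf4 had 243 against 522 CPM and Egr2 4.65 against 12.3 CPM. The cytokine-induced feedback inhibitors Cish, Socs1 and Socs2 had 8.87 against 20.3 CPM, 2.79 against 6.77 CPM and 0.829 against 7.16 CPM. Bhlhe41, Kit and Kitl had 0.576 against 1.99 CPM, 0.299 against 8.36 CPM and 0.322 against 10.3 CPM. In nonclassical monocytes 2 of 35 were higher, Sdc1 at 16 against 1.37 CPM and Cebpe at 7.64 against 1.03 CPM. There 4 were lower, beside 6.15% of all genes past 2-fold either way, among them Cish at 10.1 against 29.8 CPM, Socs1 at 2.22 against 10.3 CPM and Egr2 at 3.45 against 15.4 CPM. The summed level of the 6 neutrophil markers also differed, at 4472 against 243 CPM in classical and 218 against 862 CPM in nonclassical monocytes, and its part in these values was not tested.

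In T cells 4 of 36 were higher and 5 lower, beside 9.89% of all genes. The higher genes were Cish at 77.5 against 32.9 CPM, Socs2 at 29.7 against 10 CPM, Bhlhe40, a factor that helper T cells need to make GM-CSF, at 164 against 76.7 CPM, and Il3ra at 23.5 against 8.38 CPM. The lower genes were Egr2 at 0.560 against 7.25 CPM, Stat5a at 57.4 against 116 CPM, Cebpd at 3.92 against 7.94 CPM, Flt3 at 1.12 against 2.97 CPM and Kitl at 1.68 against 7.07 CPM. In natural killer cells 5 of 35 were higher, among them Socs2 at 45.5 against 11.7 CPM and Il3ra at 24.3 against 11.1 CPM, and 3 lower, beside 14.7% of all genes. In B cells 0 of 39 were higher and 5 lower, beside 7.66% of all genes, among them Cish at 3.51 against 17.4 CPM. In general capillary endothelium 5 of 34 were higher, all leukocyte genes (Tyrobp, Ptpn6, Spi1, Fgr and Pik3cd), and 7 lower, beside 16% of all genes, among them Socs3 at 179 against 363 CPM and Cish at 78 against 162 CPM.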

How the data were processed

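The authors deposited raw UMI counts per gene and called cell for each library, made with Cell Ranger 9.0.1 on GRCm39 (mm39) per the labels' processing notes. Removal of free RNA is not given in the sources used here. The study's methods state 2 samples per genotype, of which 1 each was analysed. Following those methods, a kept cell had at least 500 UMIs and 200 genes and at most 20% mitochondrial UMIs, and levels did not use mitochondrial, ribosomal or Gm- genes, which held 19.0% and 16.5% of UMIs. Counts were summed over the cells of a class and scaled to CPM. Levels carry exact Poisson, ratios exact conditional binomial and shares exact Clopper-Pearson 95% intervals. Only the ratio intervals were run on simulated data. Those were independent Poisson counts, the model the intervals assume, so UMIs gathered in single cells were not covered. Limits at 0 use 3 counts. A class needed at least 0.5 of its markers, no tie within its lineage and 0.2 more than any other lineage, and granule markers took precedence over monocyte markers. Scrublet marked 346 and 1145 cells as doublets, which stayed in. Changes past 2-fold were counted for genes with at least 30 UMIs over both libraries. The rule for named genes took the 9 members, pathway genes past 2-fold and the 3 genes most like each member. Of the pathway genes past 2-fold, 1 is not reported here by name. Members, lists and gate thresholds were chosen with earlier results of these data known. None of the 18 antibody tags names a member's protein. Alternatives were other denominators, cell filters, gates (0.65 and 0.34), thinned depths (750 and 3000) and Leiden clusters (scanpy 1.11.5, leidenalg 0.10.2, Python 3.11.15).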

Additional observations from a re-analysis of the deposited data

Results flagged for a closer look

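Csf1 went opposite ways in different classes, and the difference between the classes was not tested, since each label had 1 library. It was higher in the KO-labelled library in T cells (6.72 against 1.92 CPM) and lower there in alveolar macrophages, classical monocytes and nonclassical monocytes. The log2 ratio in T cells exceeded that in alveolar macrophages by 4.49, that in classical monocytes by 3.75 and that in nonclassical monocytes by 5.09. The T cell value rests on 24 and 22 UMIs. Each of these ratios has a level below that of B cells of the same library on 1 side (the WT-labelled T cells and the KO-labelled macrophages and monocytes), so the sizes of the differences are not well determined. Without 12 cells with at least 5 UMIs each, the WT-labelled macrophages also lay below B cells, at 2.57 against 3.52 CPM. The WT-labelled classical monocyte level rests on 12 UMIs.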

How the results depend on the processing

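Values are log2 ratios, KO-labelled over WT-labelled, over all kept cells unless a class is named. Of the recomputed values, 90 stayed within the limits set by counting error, 19 moved beyond them and 7 changed sign. Leaving out doublets, dropping the cell filter, and stricter or looser gates moved none of the values they were run on. Averaging over cells gave Csf1 -2.13, Csf1r 2.0, Csf2 -0.75, Csf2ra 0.84, Csf2rb 0.61, Csf2rb2 0.75, Csf3 0.67, Csf3r -1.25. With all gene UMIs in the denominator the values were Csf1r 1.72, Csf2ra 0.54, Csf2rb 0.19, Csf3r -0.35. Taking 8 classes alone and weighting them by the WT-labelled shares, chosen after seeing the data, gave the other sign for 6 genes (Csf1 0.26, Csf2 1.96, Csf2ra -0.073, Csf2rb -0.040, Csf2rb2 -0.0066, Csf3 -0.99) and gave Il34 -2.15, Csf1r 0.15, Csf3r -0.16; for Csf2 the restriction alone turned the ratio, to 1.41. Clusters in place of gates turned Csf1r in nonclassical monocytes from 0.084 to -0.10 and made them the class with the highest Csf1r (882 CPM) and Csf2ra (279 CPM). By gates, C1q macrophages led in Csf1r and the granule gate in Csf2ra. Neither was among the 5 leading cluster names for that gene, and the cause was not tested. The KO-labelled minus WT-labelled share of classical monocytes with both GM-CSF receptor chains was 4.68 percentage points at 1500 UMIs, 0.988 at 750 and 21.7 without thinning. Within classes, ratios were recomputed only where the member was highest, among classes with at least 50 cells in each library. Csf1 and Csf2 in T cells, Csf1 in alveolar macrophages and monocytes, and Csf2rb in monocytes were therefore not recomputed. Nor was Il34 in general capillary endothelium, since the KO-labelled cells had 0 UMIs. No library could be left out, with 1 per label. No paired analysis was possible because each label had 1 library. Depth limits the ligands most: Il34 and Csf3 had 29 and 112 UMIs in the KO-labelled library.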
